A study of Mus musculus with 8 samples.

Results

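The contacts of sites bound by RNA polymerase II (Pol II) were compared between wild-type (WT) and KLF4-knockout (KO) E14 mouse embryonic stem cells, a line from the blastocyst. The measurements were 2 pooled HiChIP files, 1 per genotype, made from the 4 HiChIP samples among the 8 samples of the series. The other 4 samples were RNA-seq libraries, 2 WT and 2 KO, and served as a second readout of the same genotypes. The KO cells carry a knockout of Klf4 and the other cells are labelled wild type, and the labels give the same media for both. These were gelatin-coated dishes with 15% serum and either 10 ng/mL LIF with 1 µM of the MEK inhibitor PD0325901 and 3 µM of the GSK3 inhibitor CHIR99021, or 1000 U/mL LIF. No source used here states which medium each library came from, how Klf4 was edited or whether the KO cells are 1 clone. Because each genotype was available as 1 pool, the spread between replicates is unknown, no difference between the pools was tested, and every interval below covers counting error only.

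HiChIP ligates chromatin ends that lie close together in the nucleus, pulls down those held by 1 protein and reads both ends of each joined piece, a paired-end tag (PET). With Pol II as the protein, PETs report contacts among promoters, enhancers and transcribed gene bodies. KLF4 is a zinc finger transcription factor that binds GC-rich promoters and enhancers and belongs to the network that keeps embryonic stem cells in the naive state. Active promoters, enhancers and clusters of highly transcribed genes, such as the replication-dependent histone genes, are known to meet in space.

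The share of a gene was its number of PETs on pairs of different anchors that touched the gene body by at least 1 bp, per 10000 such gene-touching PETs of the pool. Anchors are the intervals that a loop file joins. The ratio is the KO share over the WT share, with an exact conditional binomial 95% interval. Genes with 20 or more PETs over both pools were described. Where a pool had no PET at a gene, the ratio was computed against 3 PETs in that pool. Such a ratio is a bound at that floor, and the limit of its 95% interval is looser. By RNA, Klf4 was at 2882 and 2421 reads in WT and at 0 in each KO library. Over all 15517 genes tested, 8.3% passed the edgeR test at an FDR of 0.05, 2.96% higher and 5.34% lower in KO. The 10 embryonic stem cell markers summed to 5871 to 8030 CPM (reads scaled to library size) in each RNA library, and the 3 of 10 fibroblast markers that passed the expression filter to 17.3 to 25.5 CPM.

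The promoters below belong to genes on which the results turn, and show where the anchors of the 2 pools met a gene start. Each is the 250 bases before the RefSeq start (GRCm38.p6, the patch release of mm10), 5′ to 3′ on the strand of the gene. Capitals mark GGGNGTGG, a core shared by many KLF and SP binding motifs, or its reverse complement CCACNCCC. H3c4 (chr13:23575513-23575762, plus strand) is a histone gene among those with the most WT PETs. Rpsa (chr9:120127516-120127765, plus strand) had the lowest ratio among the ribosomal protein genes described. Nanog (chr6:122707315-122707564, plus strand, the downstream one of its 2 starts in the table) encodes a core pluripotency factor. Klf4 (chr4:55532476-55532725, minus strand) is the edited gene. Dnm2 (chr9:21424658-21424907, plus strand) had the most PETs among genes with none in WT.
H3c4: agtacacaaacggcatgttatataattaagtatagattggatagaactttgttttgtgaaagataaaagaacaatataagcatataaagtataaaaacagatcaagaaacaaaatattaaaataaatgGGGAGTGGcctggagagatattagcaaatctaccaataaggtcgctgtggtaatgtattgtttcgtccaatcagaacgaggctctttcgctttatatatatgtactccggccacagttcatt
Rpsa: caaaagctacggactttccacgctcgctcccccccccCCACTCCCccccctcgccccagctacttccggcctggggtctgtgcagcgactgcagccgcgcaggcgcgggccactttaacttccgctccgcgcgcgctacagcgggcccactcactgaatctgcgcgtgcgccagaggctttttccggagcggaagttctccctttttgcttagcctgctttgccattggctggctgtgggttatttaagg
Nanog: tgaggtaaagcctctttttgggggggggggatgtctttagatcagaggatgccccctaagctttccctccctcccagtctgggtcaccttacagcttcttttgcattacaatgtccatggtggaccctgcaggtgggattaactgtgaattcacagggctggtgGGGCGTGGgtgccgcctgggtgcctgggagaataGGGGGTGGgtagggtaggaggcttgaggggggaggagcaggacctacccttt
Klf4: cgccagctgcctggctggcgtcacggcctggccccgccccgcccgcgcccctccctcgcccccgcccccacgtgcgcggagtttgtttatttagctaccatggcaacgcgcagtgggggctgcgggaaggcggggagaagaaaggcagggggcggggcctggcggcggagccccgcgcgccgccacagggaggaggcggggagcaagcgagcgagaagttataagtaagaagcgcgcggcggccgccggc
Dnm2: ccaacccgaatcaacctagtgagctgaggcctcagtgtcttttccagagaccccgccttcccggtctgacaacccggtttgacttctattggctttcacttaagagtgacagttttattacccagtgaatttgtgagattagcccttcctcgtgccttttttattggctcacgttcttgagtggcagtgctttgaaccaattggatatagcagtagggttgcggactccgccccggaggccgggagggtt
At all of these starts but that of Dnm2, an anchor was present in both pools, and at Dnm2 only the KO pool had one. The H3c4 start lay in an anchor of 8958 bp in WT and 9352 bp in KO that began at the same base. The Nanog start lay in an anchor of 2476 bp in WT and 19875 bp in KO, and the Klf4 start in 2152 bp and 6437 bp. In windows from 250 bases before to 50 after the start, the motif was found on either strand for 19.7% of 27025 genes with a promoter in the table and for 26.7% of those with 20 or more PETs. It was present for 27.1% (95% interval 24.5% to 29.8%) of genes at least 2-fold higher in KO share and for 25.7% (23.3% to 28.1%) of genes at least 2-fold lower. A match describes these letters only.

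The KO pool was the deeper one by an order of magnitude, and its anchors were wider and lay less often at gene starts. It held 401726 PETs and the WT pool 35189. Between different anchors these came to 236805 and 23586, and those touching a gene body to 227270 and 23051, so that KO held 90.8% of all gene-touching PETs. The files listed 8373 anchors in WT, with a median width of 1999 bp and 19 Mb covered in all, against 18293 anchors, 2932 bp and 67.0 Mb in KO. Anchors of 10 kb or more numbered 12 in WT and 514 in KO. This gave 1.24 PETs per covered kb in WT and 3.53 in KO.

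Of WT anchors, 62.2% (61.1% to 63.2%) lay within 1 kb of a gene start, and of KO anchors 42.9% (42.2% to 43.6%). Anchors in a gene body away from any start made up 26.8% of the WT list and 38.9% of the KO list, and anchors outside genes and starts 11.1% and 18.2%. PETs that joined 2 gene starts accounted for 42.3% (41.7% to 43.0%) of WT and 23.9% (23.7% to 24.1%) of KO PETs between different anchors. PETs that touched no gene start accounted for 17.2% and 32.3%. Anchors that overlapped the other pool were 81.5% of the WT anchors and 35.7% of the KO anchors, and 68.8% and 71.9% of these lay at a gene start. Among anchors listed in 1 pool only, 32.8% of those in WT and 26.7% of those in KO did.

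The median PET spanned 112 kb in WT and 63.9 kb in KO, while the median pair, counted once whatever its PETs, spanned 257 kb and 372 kb. Spans under 20 kb made up 23.5% of WT and 27.6% of KO PETs, and spans of 20 to 100 kb 24.5% and 29.6%. Spans of 100 kb to 1 Mb made up 30.5% and 26.7%. Contacts of 10 Mb or more accounted for 11.0% (10.6% to 11.4%) in WT and 8.01% (7.90% to 8.12%) in KO. Because each pool carried its own anchors, sums over a gene move with what was listed. The covered length or the PETs per covered kb is given beside some of the ratios below.

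**Figure D1:**
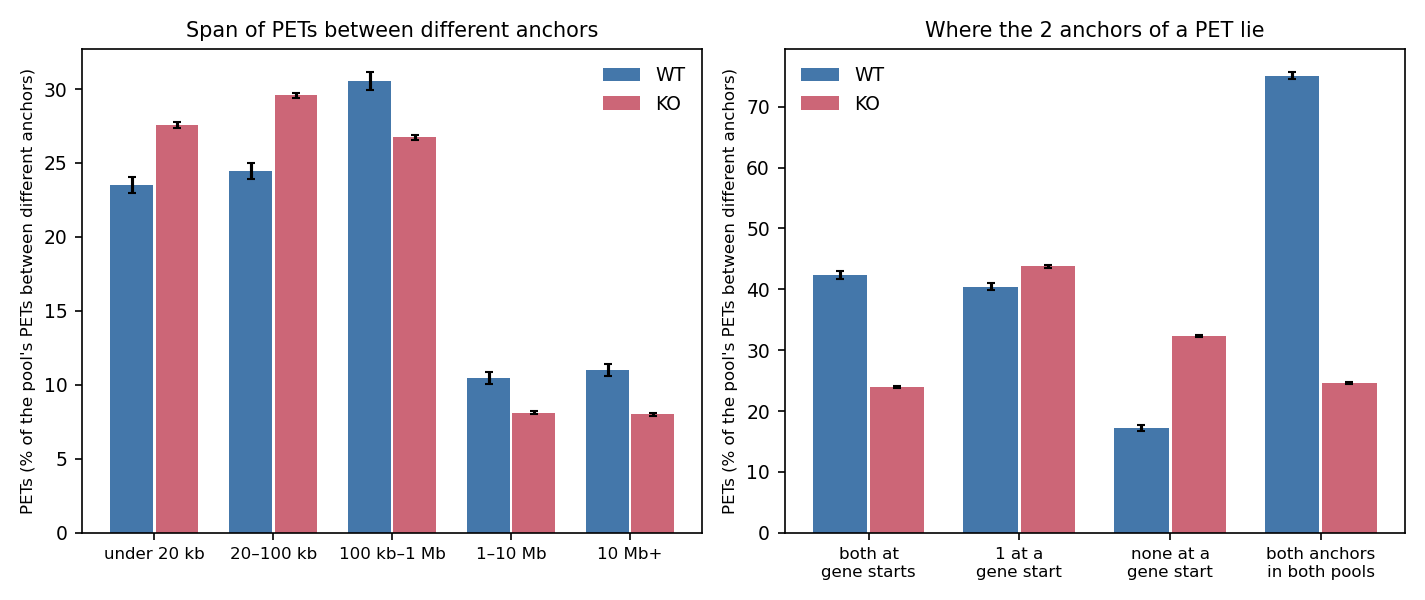
Percent of PETs between different anchors by span (left) and by where the 2 anchors lie (right), for the WT pool (blue) and the KO pool (red), 1 pool each; bars start at 0 and error bars are exact binomial 95% intervals for counting error. PETs joining 2 gene starts were 42.3% in WT and 23.9% in KO, and PETs with both anchors found in both pools 75.1% and 24.7%.

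Of 34614 RefSeq protein-coding and lncRNA genes, 13828 had a PET in either pool and 6379 had 20 or more (5294 protein-coding, 1085 lncRNA). The KO share was at least 2-fold higher at 1361 of these, or 21.3%, and at least 2-fold lower at 1623, or 25.4%. The interval lay above 1 for 951 of the higher genes and below 1 for 1188 of the lower genes. The median ratio was 0.913. The depth of the pools set which genes could enter: a gene with KO PETs only passed at a share of 0.88 per 10000, and a gene with WT PETs only at 8.68. WT had no PET at 1710 of the 6379 genes, and at 1660 of them it had no anchor in the gene body. KO had no PET at 9 of the 6379. With a minimum mean share of 5 per 10000 over the pools in place of 20 PETs, 259 of 990 genes (26.2%) were higher and 365 (36.9%) lower. Depth also set which genes could be called: a gene with 0 WT PETs needed 60 KO PETs to reach 2-fold against the 3-PET floor, so that 1181 genes with 0 WT PETs could not be called higher. The balance of higher and lower genes is therefore a description of these counts. Genes with exactly 20 PETs numbered 201, where no split of the PETs could be called higher, and 65 were at least 2-fold lower. Genes with 19 PETs, just outside, numbered 214, with 60 lower.

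**Figure D2:**
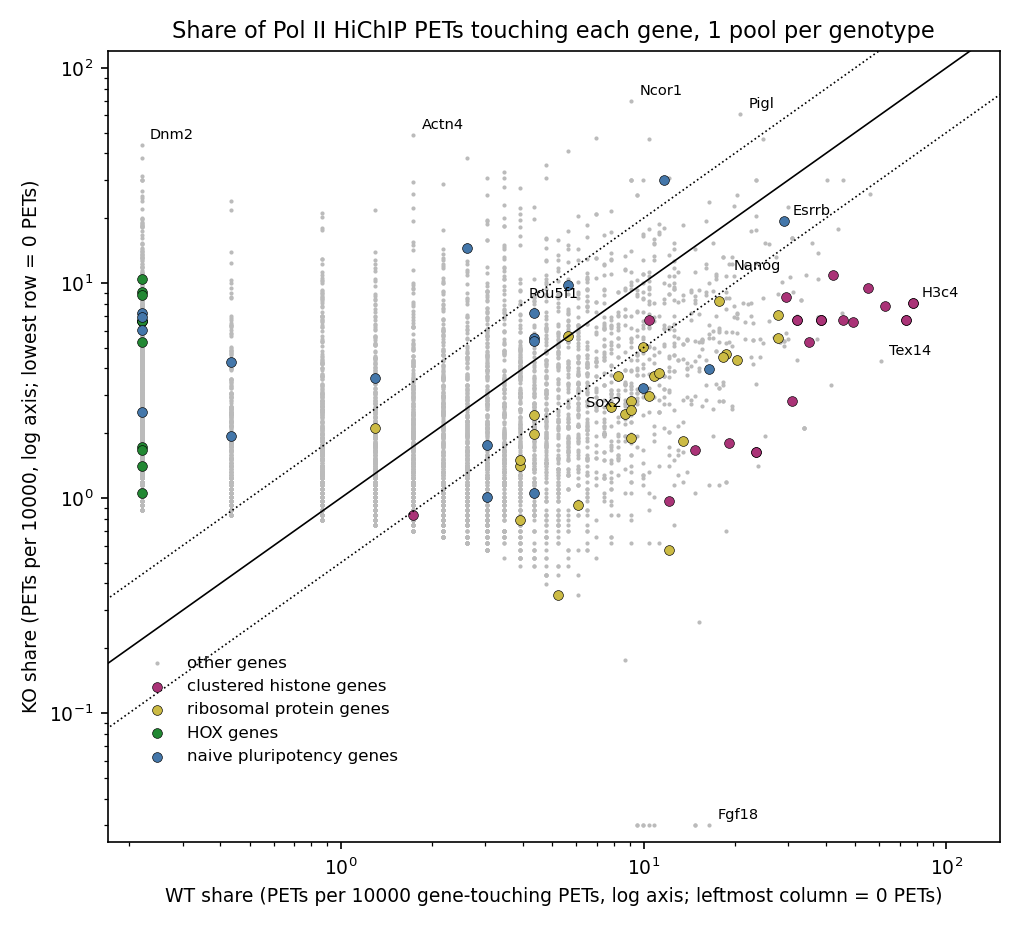
Share of each gene with 20 or more PETs (PETs per 10000 gene-touching PETs) in WT (x axis) and KO (y axis), both on log axes; genes with 0 PETs in WT are drawn in the leftmost column and those with 0 in KO in the lowest row, the solid line marks equal shares and the dotted lines 2-fold. Of the 24 listed histone genes (purple) 23 lie below the lower dotted line, with H3c4 at 77.7 in WT and 8.05 in KO, ribosomal protein genes (yellow) and naive genes (blue) are marked, and the 11 HOX genes (green) lie in the column of 0 WT PETs.

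The 12 genes named for the highest lower bound of the ratio all had 0 WT PETs, although some genes with a few WT PETs had larger ratios with wider intervals. The 12 included genes with several KO anchors along the body and genes inside 1 wide KO anchor. Dnm2, a GTPase that pinches off endocytic vesicles (chromosome 9, 21424908 to 21507759), had 0 PETs in WT and 996 in KO. Its share was at least 33.7-fold higher in KO, where 7 anchors covered 45.5 kb of the gene, and its RNA did not pass the test (log2 fold change -0.02, adjusted p = 0.963). Cfdp1, a chromatin factor that takes part in deposition of the variant histone H2A.Z, had 0 and 714 PETs over 10 KO anchors (at least 24.1-fold). Abcc5, an ATP-driven exporter, had 0 and 608 PETs (at least 20.6-fold). Tns3, a focal adhesion protein, had 0 and 546 PETs over 11 KO anchors (at least 18.5-fold). Pptc7, a mitochondrial phosphatase, had 0 and 499 PETs, and Gpr107, a membrane protein of the secretory route, 0 and 425.

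Tnfsf12, the gene of the cytokine TWEAK, had 0 PETs in WT and 684 in KO, all on a single anchor of 66.2 kb that covered 9 genes. H2-M5, a nonclassical MHC class I gene, had 0 and 682 PETs on an anchor of 48.3 kb that it shared with Zfp57. Zfp57 encodes a zinc finger protein that protects imprints, and had 27 PETs in WT and the same 682 in KO. For such genes the count belongs to the anchor and cannot be placed on 1 gene in it. Smim40 (436 KO PETs), Frmd8 (431) and Adamtsl4 (420) also had none in WT. Ptges, which makes prostaglandin E2, was the only one of these 12 genes whose RNA passed the test: it had 0 and 576 PETs, and its RNA fell from 65.2 ± 2.98 to 17.7 ± 8.03 CPM (SD, n = 2 each; edgeR quasi-likelihood test, adjusted p = 0.017). That call was lost without KO library B (adjusted p = 0.064).

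The genes with the most KO PETs had contacts in WT as well. Ncor1, a corepressor of nuclear receptors, had 21 PETs in WT and 1594 in KO (ratio 7.70, 5.02 to 12.5). Its neighbour Pigl, an enzyme of GPI anchor synthesis, had 48 and 1383 (ratio 2.92, 2.19 to 3.98). The strongest pair of different anchors in the KO file joined the Ncor1-Pigl boundary to the Pigl body 39.4 kb away with 218 PETs. The WT file had 6 PETs on a pair from the same boundary, 36.9 kb long. With anchors under 10 kb only, the ratio of Pigl was 0.169, so its direction rested on wide anchors. Actn4, an actin crosslinker, had 4 and 1101 PETs (ratio 27.9, 10.9 to 103), with 1.68 kb of anchor in WT and 52.3 kb in KO. Etl4 had 16 and 1068 PETs, and Zmynd8, a chromatin reader, 57 and 1063 (ratio 1.89, 1.45 to 2.51).

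At the other end, 9 of the genes with 20 or more PETs had 0 KO PETs. Of these, 8 are named here, since Rcn3 shared its anchor with Fcgrt. A gene with WT PETs only needed a share of 8.68 per 10000 to reach 20 PETs, so WT-only genes with fewer PETs are not described. Fgf18, a fibroblast growth factor gene, had 38 and 0 PETs and a share at least 125-fold lower in KO at the 3-PET floor (upper interval limit of the ratio 0.0103). Only 0.287 kb of an anchor at its neighbour Npm1, a nucleolar chaperone gene, reached it. Fcgrt, the neonatal Fc receptor gene, had 34 and 0 PETs, of which 12 joined it to an anchor that touches the ribosomal protein gene Rpl13a, 34.2 kb away. Tnk1, Lhb, Ypel4, Flot1, Arl4d and Nfe2l3 had 22 to 25 PETs in WT and 0 in KO, and the KO file had no anchor in any of them. Slc25a5, the mitochondrial ADP/ATP carrier, had 20 and 4 PETs (ratio 0.020, 0.005 to 0.061). Tex14, a gene of germ cell bridges (chromosome 11, 87405013 to 87555823), had 140 WT and 98 KO PETs (ratio 0.071, 0.054 to 0.093), although KO anchors covered more of it (25.3 kb) than WT anchors (14.2 kb). None of the genes in this group that were tested passed the RNA test, and Fgf18 was not tested.

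Contacts of the clustered histone genes, which supply histones for DNA replication, made up a smaller part of the KO pool. Over the 67 clustered histone genes, 1079 WT and 1391 KO PETs touched at least 1 member, a share of 468 and 61.2 per 10000 (ratio 0.131, 0.121 to 0.142). The anchors over them covered 130 kb in WT and 171 kb in KO, with 8.27 and 8.13 PETs per covered kb, while over all genes this density was 1.36 in WT and 4.08 in KO. Of the 57 with 20 or more PETs, 56 were at least 2-fold lower in KO and 0 higher, where 25.4% and 21.3% of all genes were. The family was touched by 32 anchors in WT and 23 in KO, so members share PETs and are not separate observations. H3c4, H2ac7, H2ac8, H2bc7 and H2bc8 were the genes with the most WT PETs and had identical counts, 179 and 183, because 1 anchor covers all 5 in each pool. H1f3, a linker histone gene, had 97 and 246 PETs (ratio 0.257). H2bc14 had 78 and 48 PETs (ratio 0.062, 0.043 to 0.091), and its strongest pair in both pools reached the H3c3 and H2bc3 anchor 2027 kb away in WT and 2033 kb away in KO, with 25 and 16 PETs.

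Contacts within the family also took a smaller part of the family's own PETs. The same was seen for ribosomal protein genes (16.4% in WT and 2.60% in KO). Over the whole pools, PETs joining 2 gene starts were also a smaller part in KO (42.3% and 23.9%). Both anchors touched a clustered histone gene for 84.6% (82.3% to 86.7%) of the histone family's PETs in WT and 54.5% (51.8% to 57.1%) in KO. Contacts between histone genes 500 kb or more apart accounted for 10.8% (8.97% to 12.8%) and 4.67% (3.62% to 5.92%). Of the 57 with 20 or more PETs, 14 had an RNA test and 1 passed it: H2ac10 rose (log2 fold change 3.25, edgeR adjusted p = 0.028), with 127 and 215 PETs (ratio 0.172). Its RNA was low, at 0.27 ± 0.08 CPM in WT and 2.68 ± 0.95 CPM in KO (SD, n = 2 each). That of H2ac8 and H1f3 was low as well, at 2.80 and 1.03 CPM in WT.

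The ribosomal protein genes, each encoding a part of the cytosolic ribosome, had a lower share in KO too. The 84 genes together had 1697 WT and 4892 KO PETs, a share of 736 and 215 per 10000 (ratio 0.292, 0.277 to 0.309). PETs per covered kb came to 3.81 in WT and 8.12 in KO. At least 20 PETs were found for 73 of them, of which 64 were at least 2-fold lower and 0 higher. Over all genes, 25.4% were lower and 21.3% higher. Rpsa had 28 and 13 PETs (ratio 0.047), Rps18 64 and 126 (0.200), and Rpl23 41 and 187 (0.463). Rps14 was the member with the highest ratio, 3 and 48 PETs (1.62). With the midpoint of the anchor required in the gene body, Rps18 turned to a ratio of 3.99, and 5 of 26 listed members were at least 2-fold higher against 12 lower. RNA passed the test for 0 of the 27 listed members with 20 or more PETs.

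Core pluripotency genes split in direction. Nanog had 43 WT and 244 KO PETs (ratio 0.576, 0.415 to 0.816), Esrrb, an orphan nuclear receptor, 67 and 441 (0.668, 0.515 to 0.877), and Sox2 14 and 56 (0.406, 0.223 to 0.789). Pou5f1, which encodes OCT4, had 9 and 181 PETs (2.04, 1.05 to 4.53). The KLF4 paralogs Klf2 and Klf5 had 7 and 40 PETs (0.580, 0.257 to 1.53) and 10 and 126 PETs (1.28, 0.672 to 2.73), intervals that held 1. Klf4 itself fell under the 20 PETs, with 5 in WT and 2 in KO (0.041, 0.004 to 0.248). One of its WT contacts and 1 of its KO contacts, with 2 and 1 PETs, joined the gene start to the same region 67.9 to 68.7 kb away. None of Nanog, Esrrb, Sox2, Pou5f1, Klf2 and Klf5 passed the RNA test (adjusted p = 0.387 to 0.951). On pairs of anchors found in both pools, the ratio of Sox2 was 1.26, that of Nanog 1.15 and that of Esrrb 1.49, where the median over genes was 1.32.

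Single contacts could be followed at these genes. The strongest Sox2 pair in both pools joined the gene to an anchor that touched no gene of the annotation, 105 kb away in WT (chr3:34755498-34758812) and 109 kb away in KO (chr3:34754817-34765567) between anchor centres. This pair held 7 of the 14 Sox2 PETs in WT, or 50.0% (23.0% to 77.0%), and 36 of 56 in KO, or 64.3% (50.4% to 76.6%). Its share of the pool was 3.04 and 1.58 per 10000 (ratio 0.522, 0.229 to 1.39), an interval that held 1. Nanog was joined most often to the neighbouring glucose transporter gene Slc2a3, by 7 PETs over 29.1 kb in WT and by 45 PETs over 58.8 kb in KO. In WT, 2 narrow anchors covered 2.37 kb of Nanog, and in KO a single anchor of 19.9 kb covered all of it. The strongest Esrrb pair lay inside the gene in both pools, with 9 PETs over 9.72 kb in WT and 146 over 23.6 kb in KO.

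Among all genes, 21.3% were at least 2-fold higher and 25.4% lower. Of the 15 listed core genes, 13 had 20 or more PETs, with 5 higher, 2 lower and a median ratio of 0.884. This changed with the setting. Anchors under 10 kb gave 1 of 8 core genes higher, 4 lower and a median of 0.494, where that of all genes was 1.09. Spans of 20 kb to 1 Mb gave 5 of 12 higher, 0 lower and a median of 1.31, where that of all genes was 0.931. Of 25 naive pluripotency genes, 19 had 20 or more PETs, with 8 higher, 4 lower and a median of 1.73. Tfcp2l1, a naive-state transcription factor, had 1 and 97 PETs (ratio 9.84, 1.72 to 393), and Tbx3, a T-box factor, 0 and 137 (at least 4.63). The RNA of both fell (log2 fold change -1.90 and -1.20, edgeR adjusted p = 0.011 and 0.032). Zfp42, which encodes the marker REX1, had 38 and 90 PETs (0.240), and the growth factor gene Fgf4 23 and 74 (0.326). Manba, a lysosomal mannosidase gene, had 6 and 329 PETs (5.56). With anchors under 10 kb only, the naive list had 3 of 14 higher, 6 lower and a median of 0.791, below that of all genes (1.09), whereas with all anchors it lay above that of all genes (0.913). Of 23 formative genes, those of the state between naive and primed, 8 had 20 or more PETs, with 3 higher, 1 lower and a median of 1.61. RNA rose for 6 of the 8, of which 2 were at least 2-fold higher in contact share and 1 lower. Etv4 had 2 and 159 PETs (8.06, 2.20 to 67.2) and Dnmt3l 5 and 121 (2.45, 1.02 to 7.70), with RNA log2 fold changes of 1.89 and 2.94 (adjusted p = 0.011 and 0.002). Dnmt3b, a de novo DNA methyltransferase, had 5 and 18 PETs (0.365, 0.131 to 1.26), and its RNA rose as well (log2 fold change 1.77, adjusted p = 0.008). Ratios of the other 3 were 1.55 for Dnmt3a, 1.04 for Utf1 and 0.718 for Lin28a, each with an interval that held 1. With anchors under 10 kb only, 3 of 8 formative genes were higher and 1 lower, with a median of 1.10 where that of all genes was 1.09.

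Genes of the neural fate had few contacts in either pool. Pax6 and Nes had 0 PETs in both, and Sox1 0 and 2. Of 30 early neural regulators, 3 had 20 or more PETs, among them Meis1 with 0 and 102 and Meis2 with 0 and 44. RNA of Meis2 fell (log2 fold change -1.93, adjusted p = 0.045). Of 20 neuronal genes, 2 had them: Mapt 9 and 87 (0.980), and Tubb2b 17 and 34 (0.203). HOX genes, which pattern the body axis, had 0 WT PETs and no WT anchor, which at the 3-PET floor allows a share of up to 1.30 per 10000. In KO, 544 PETs touched a HOX gene, a share of 23.9 per 10000 and at least 18.4-fold higher (lower interval limit 14.9). Of the 39 genes, 11 had 20 or more PETs, all from the KO pool, so that none could be called lower. At least 2-fold higher were 7 of them, where 21.3% of all genes were. The 11 genes lay in the Hoxa cluster (374 PETs) and the Hoxb cluster (159 PETs), while Hoxc had 11 PETs and Hoxd 0. Hoxa2 had 237 PETs and Hoxa3 199, and Hoxa4, Hoxa5 and Hoxa6 had 151 each because anchors covered several of them. With anchors under 10 kb only, 6 HOX genes had 20 or more PETs and 1 was at least 2-fold higher. The RNA of Hoxa4 and Hoxa7 did not pass the test.

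**Figure D3:**
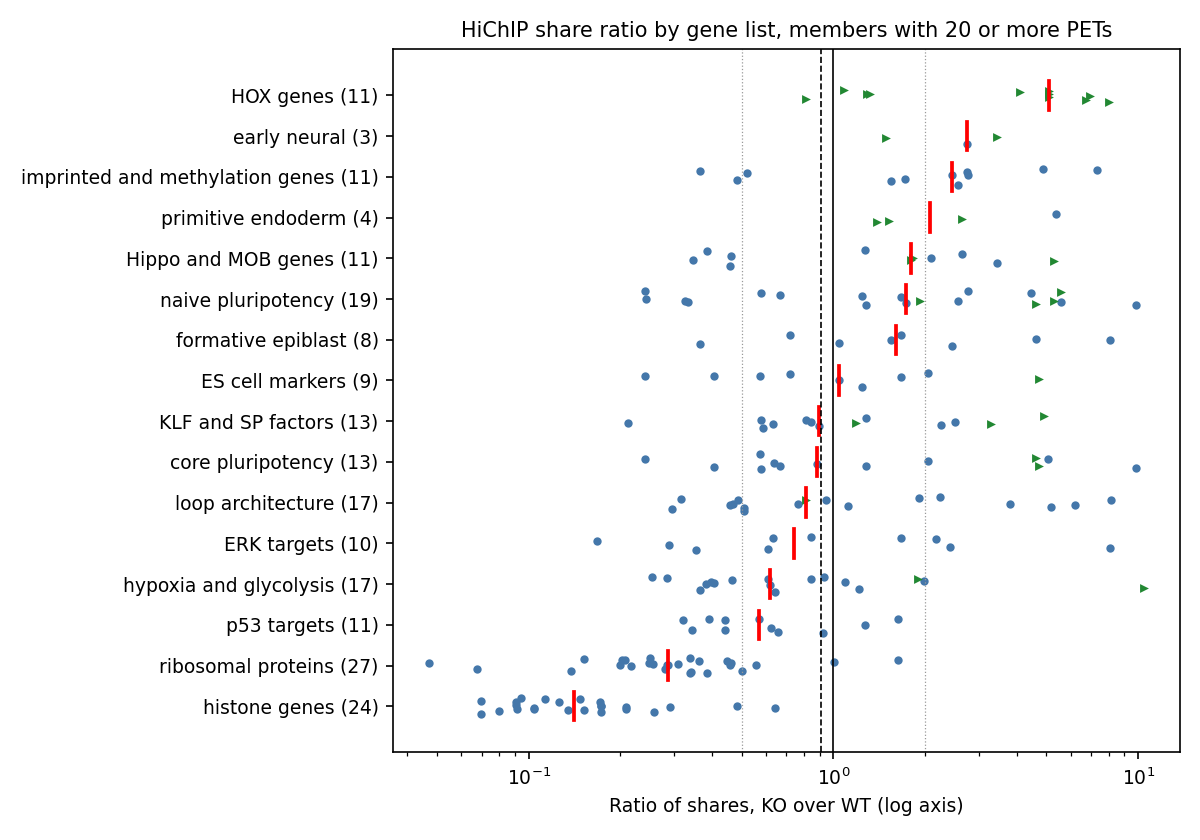
Ratio of shares, KO over WT (log axis), for each member with 20 or more PETs of the gene lists with at least 3 such members (number in brackets); blue points are ratios, green triangles are bounds for genes with 0 WT PETs, red bars are list medians, the dashed line is the median of all genes (0.913) and dotted lines mark 2-fold. Histone genes (median 0.141) and ribosomal protein genes (0.287) sit at the low end and HOX genes (5.11, all bounds) at the high end.

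Several genes of glycolysis and the hypoxia response had higher RNA and a lower contact share in KO, with Eno1, Gapdh, Pfkl, Pgam1 and Ldha among them. Of 27 genes, 17 had 20 or more PETs, with 1 higher, 7 lower and a median ratio of 0.621. PETs per covered kb came to 3.42 in WT and 9.93 in KO, where all genes had 1.36 and 4.08. RNA rose for 10 of the 17, of which 8 had a ratio below 1 and 5 a ratio of 0.5 or less. Among all 120 genes with higher RNA, 45.0% had a ratio below 1 and 22.5% one of 0.5 or less, and among all 6379 genes 53.6% and 25.4%. The 53.6% includes 521 genes with 0 WT PETs whose ratio is a lower bound. Eno1, the enolase gene, had 32 and 90 PETs (ratio 0.285, 0.189 to 0.441), while its RNA rose from 981 ± 225 to 2524 ± 428 CPM (SD, n = 2 each; edgeR adjusted p = 0.032). Ldha, lactate dehydrogenase A, had 6 and 24 PETs (0.406, 0.162 to 1.21, an interval that held 1), and its RNA rose from 377 ± 69.2 to 1576 ± 160 CPM (edgeR, adjusted p = 0.006). Gapdh had 34 and 122 PETs (0.364), Pfkl 10 and 39 (0.396) and Pgam1 8 and 30 (0.380), all with higher RNA. Slc2a3, the neuronal-type glucose transporter next to Nanog, had the most PETs of the list, 129 and 590 (0.464), and its RNA did not pass the test (log2 fold change -0.58, adjusted p = 0.257). Hk2, a hexokinase, went the other way with 0 and 309 PETs (at least 10.4-fold higher). On pairs of anchors found in both pools, 2 of 11 listed genes were at least 2-fold higher and 1 lower, with a median of 0.902 where that of all genes was 1.32.

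For p53 targets, 11 of 20 had 20 or more PETs, with 0 higher, 5 lower and a median of 0.568, where 21.3% of all genes were higher, 25.4% lower and the median was 0.913. Bax, which permeabilises mitochondria in apoptosis, had 57 and 193 PETs (0.343, 0.254 to 0.470), and Trp53 itself 22 and 201 (0.927). Cdkn1a, the cell cycle inhibitor p21, had 9 and 39 (0.440), and its RNA fell by 2.49 on the log2 scale (edgeR, adjusted p = 0.004). With gene starts counted in place of gene bodies, 2 p53 targets were at least 2-fold higher and 2 lower. The p53 list had 2.59 PETs per covered kb in WT and 7.42 in KO, where all genes had 1.36 and 4.08. Among 17 of 25 genes of loop architecture and transcription complexes, 5 were higher and 5 lower (median 0.811), near the shares of all genes. The cohesin subunit Rad21 had 1 and 80 PETs (8.11, 1.42 to 324) and Chd4 2 and 122 (6.19, 1.68 to 51.7). The looping adaptor Ldb1 had 22 and 64 (0.295, 0.179 to 0.503). Ctcf had 5 and 55 PETs (1.12), and no member passed the RNA test.

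Beside the lists that follow, 21.3% of all genes were at least 2-fold higher and 25.4% lower, with a median of 0.913. Of 26 KLF and SP factors, 13 had 20 or more PETs, with 4 higher, 1 lower and a median of 0.898. Sp1 (17 and 379 PETs, ratio 2.26) and Klf9 (15 and 371, 2.51) were higher with all anchors and lower with anchors under 10 kb (0.184 and 0.295). Among imprinting and DNA methylation genes, 11 of 26 were described, 6 higher and 2 lower (median 2.45). With anchors under 10 kb only, 4 of 10 were higher and 3 lower, with a median of 1.17 where that of all genes was 1.09. Dnmt1, the maintenance methyltransferase, had 6 and 288 PETs (4.87), Tet1, which oxidises methylcytosine, 18 and 488 (2.75), and Trim28, a corepressor, 63 and 300 (0.483). Hippo and MOB genes gave 11 of 22, with 4 higher and 4 lower (median 1.79), such as the factor gene Tead2 with 0 and 156 PETs and Tead3 with 22 and 100 (0.461). ERK targets gave 10 of 22, with 3 higher and 3 lower (median 0.740). The ERK feedback inhibitor gene Spry4 had 17 and 28 PETs (0.167), while its RNA rose (log2 fold change 4.68, adjusted p = 0.003). Primitive endoderm genes gave 4 of 15, with 2 higher and 0 lower (median 2.08), and mesendoderm genes 2 of 17. The mesendoderm genes were Nodal with 2 and 91 PETs (4.61, 1.24 to 38.7) and Lefty1 with 10 and 11 (0.112, 0.043 to 0.293). WNT targets, trophoblast genes and two-cell-like genes gave 1 member each. Eif1a had 4 and 46 PETs (1.17), and Tcf7 (0 and 23) and Tfap2a (0 and 22) had too few PETs for a call. Embryonic stem cell markers gave 9 of 10, with 2 higher and 2 lower (median 1.04), and fibroblast markers 0 of 10. Anchors under 10 kb gave 0 of 6 stem cell markers higher, 3 lower and a median of 0.542, where that of all genes was 1.09.

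Contact share and RNA were set side by side across genes. Among 5281 genes with 20 or more PETs and an RNA test, Spearman's rho between the RNA log2 fold change and the ratio was -0.001, a description across genes, which are not independent. RNA was higher in KO for 120 of them and lower for 212. Of the 120, 31 (25.8%) were at least 2-fold higher in contact share and 27 (22.5%) lower. Of the 212, 51 (24.1%) were higher and 39 (18.4%) lower. Among all 6379 genes, 21.3% were higher and 25.4% lower. The comparison changed with the filter. With the minimum mean share in place of 20 PETs, 17 of 31 genes with lower RNA (54.8%) were higher and 7 (22.6%) lower. Their median ratio was 3.00. Of 25 genes with higher RNA, 8 (32%) were higher and 4 (16%) lower, with a median of 1.63. Among all 990 genes of that filter, 26.2% were higher and 36.9% lower, with a median of 0.752. Spearman's rho there was 0.087 over 831 genes. Rbpj, the DNA-binding partner of Notch, was higher in both, with 5 and 657 PETs (13.3, 5.68 to 41.2) and RNA of 202 ± 56.2 and 492 ± 158 CPM (SD, n = 2 each; edgeR adjusted p = 0.046). Neat1, a nuclear architectural lncRNA, was lower in both, with 87 and 314 PETs (0.366, 0.288 to 0.470) and RNA of 306 ± 23.7 and 109 ± 11.4 CPM (edgeR adjusted p = 0.011). Glud1, glutamate dehydrogenase, had 2 and 479 PETs (24.3, 6.69 to 201) with RNA that fell from 448 ± 43.5 to 185 ± 11.5 CPM (edgeR adjusted p = 0.018). Rbpj, Neat1 and Glud1 were picked after their values were seen, to show the combinations. Glud1 lies on chromosome 14, where the median RNA log2 fold change was -0.68 and the contact ratio 1.35. Other genes of that chromosome, such as Zfhx2 (ratio 8.16) and Tsc22d1 (3.19), are also among the 31 with lower RNA. The part of the chromosome in these values was not tested.

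**Figure D4:**
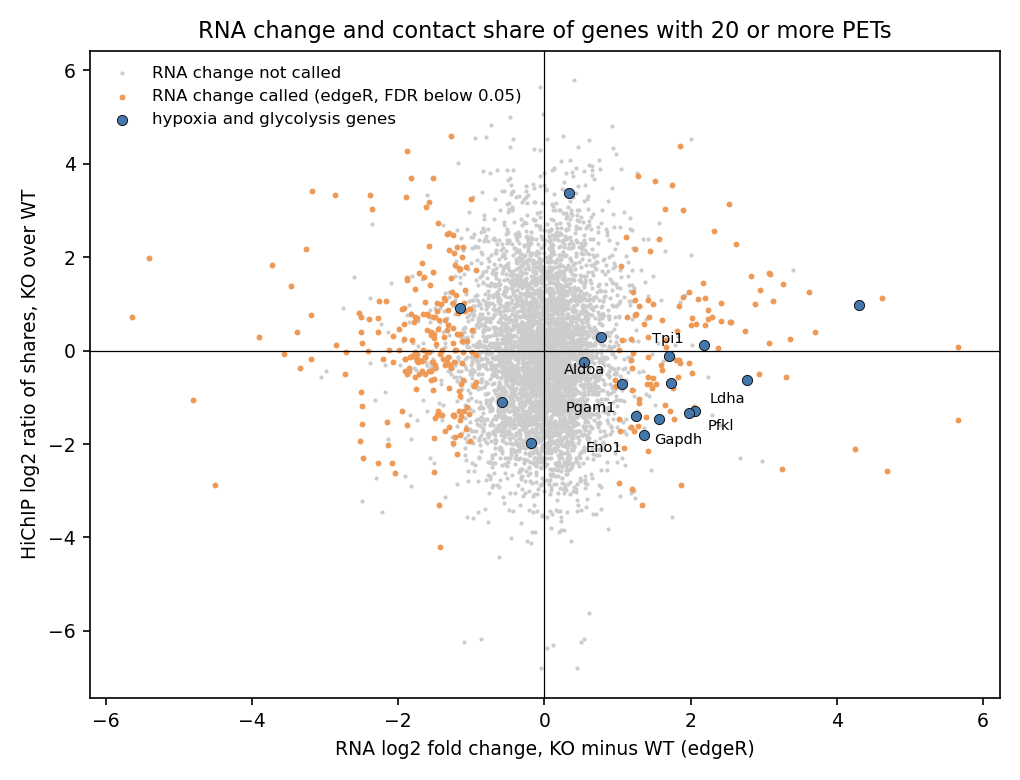
RNA log2 fold change (x axis, KO minus WT, edgeR, 2 libraries per genotype) against the log2 ratio of HiChIP shares (y axis, 1 pool per genotype) for 5281 genes with 20 or more PETs; orange points passed the RNA test, blue points are hypoxia and glycolysis genes, and ratios of genes with 0 PETs in a pool are bounds. Spearman's rho was -0.001, and Eno1, Gapdh, Pfkl, Pgam1 and Ldha lie at higher RNA and lower share.

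The ratio moved with the length of the gene. Its median was 0.753 for 1237 genes under 5 kb, 0.845 for 2412 of 5 to 20 kb, 0.964 for 1545 of 20 to 50 kb, 1.13 for 690 of 50 to 100 kb and 1.34 for 495 of 100 kb or more. Genes at least 2-fold higher in KO had a median length of 21.9 kb, with 0.705 kb of WT and 6.05 kb of KO anchor in the body. Genes at least 2-fold lower had a median length of 11.6 kb, with 1.37 and 2.1 kb. Counted at the gene start within 5 kb, the medians ran from 0.884 for the shortest to 1.24 for the longest class, and on pairs of anchors found in both pools from 1.13 to 1.72. On pairs with 2 or more PETs, the rise stopped before the longest class. The median there was 0.620 under 5 kb, 0.940 at 50 to 100 kb and 0.819 at 100 kb or more. Clustered histone and ribosomal protein genes are short, and the part of length in their ratios was not tested.

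**Figure D5:**
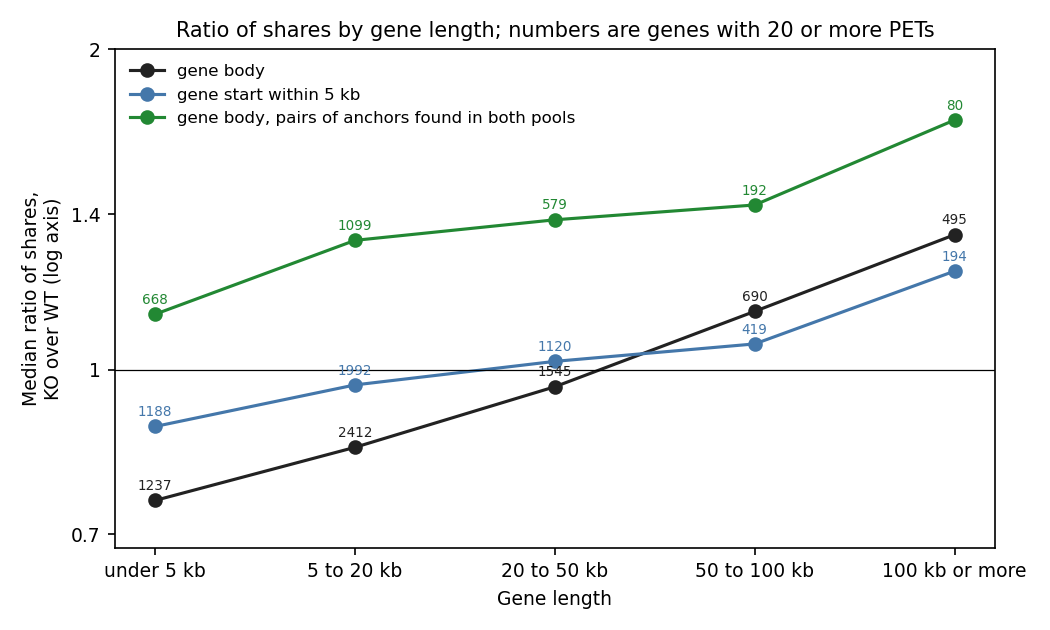
Median ratio of shares, KO over WT (log axis), by gene length class, for PETs touching the gene body (black), the gene start within 5 kb (blue) and the gene body on pairs of anchors found in both pools (green); numbers are genes with 20 or more PETs. The median is higher in each longer class under all 3 counts, from 0.753 to 1.34 for gene bodies.

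Restricting both pools to pairs whose anchors each overlapped an anchor of the other pool turned the balance. These pairs held 75.1% of WT and 24.7% of KO PETs between different anchors. Of 2618 genes with 20 or more such PETs, 830 (31.7%) were at least 2-fold higher in KO and 299 (11.4%) lower, so that 73.5% of the genes past 2-fold were higher, against 45.6% with all anchors. The median over genes was 1.32, which is 0.53 above that with all anchors on the log2 scale, and the values below are read against it. Histone genes stayed at the low end, with 0 of 23 listed members higher, 18 lower and a median of 0.336. Ribosomal protein genes had 0 of 22 higher, 10 lower and a median of 0.542. Among the genes with the highest ratios on these pairs were H2-M5 (0 and 388 PETs), Tnfsf12 (0 and 380) and Itgb7, an integrin subunit (0 and 238). WT had no anchor in the body of any of them, so their KO anchors met WT anchors outside the gene. Their widest KO anchors were 48.3, 66.2 and 16.6 kb. Fgf18 (34 and 0 PETs), Mto1 (28 and 0) and Ttyh2 (24 and 0) had the lowest. With all pairs, Mto1 had 26 and Ttyh2 14 KO PETs, which the restriction left out. These extremes therefore depend on the overlap rule.

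By chromosome, chromosome 13 stood lowest among the autosomes, with 5.98% of gene-touching PETs in WT and 2.62% in KO (ratio 0.438, 0.413 to 0.464). Pairs touching a clustered histone gene there held 933 WT and 1035 KO PETs (ratio 0.113, 0.103 to 0.123), and the other pairs of the chromosome 445 and 4911 (1.12, 1.02 to 1.24). Chromosome 16 was highest (1.56, 1.43 to 1.71), followed by chromosome 14 (1.35, 1.22 to 1.48). The remaining 16 autosomes lay between 0.843 and 1.24. In RNA, chromosome 14 had a median log2 fold change of -0.68 over 452 tested genes, where the other 18 autosomes had medians of -0.08 to 0.10. On the Y chromosome, 68 WT and 27 KO PETs touched a gene (0.040, 0.025 to 0.064), all at the predicted genes Gm33272 and Gm52481. The 4 tested Y genes, Ddx3y, Eif2s3y, Uba1y and Uty, had 14.2 to 86.7 CPM on average in WT and 0 in both KO libraries. The X chromosome had a ratio of 0.697 (0.602 to 0.810). Chromosome copy number was not measured, and its part in the shares was not tested.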

How the data were processed

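Gene models and promoters were RefSeq GRCm38.p6. The submitters' processing notes name HiC-Pro 2.11.4 beside HISAT2 2.1.0, HTSeq 0.9.1 and DESeq2 1.18.1, with mm10 as the build. The deposited HiChIP files hold whole-number counts of PETs for pairs of anchors on 1 chromosome, 1 file per genotype that the authors named as a mix. No source used here gives the loop caller, peaks, filters or the balance of replicates in each mix. The deposited RNA files hold raw read counts per Ensembl gene, 8287497 to 9762190 per library.

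PETs within 1 anchor were left out. A pair counted once for each gene it touched, so neighbouring genes share PETs. Shares, ratios and exact binomial intervals were computed with Python 3.11.15, pandas 2.3.3 and SciPy 1.17.1, and the code was checked on simulated pools. For RNA, R 4.3.3 and edgeR 4.0.16 gave a quasi-likelihood F-test (TMM, filterByExpr, Benjamini-Hochberg over 15517 genes, FDR 0.05), with DESeq2 1.42.0 as an alternative. The KO columns carry letters, so they were used as 2 libraries without a number. The labels call replicates biological, without saying that they came from separate cultures, so RNA p-values measure the spread between these libraries, which may be technical.

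The members and the 22 gene lists were chosen with earlier results of these data known. Named are 10 fixed genes, the 12 protein-coding genes with the highest lower bound and the 12 with the lowest upper bound of the ratio (passing over predicted genes, Rik clones and genes sharing more than 50% of their PETs with one taken), up to 3 members per list with the most PETs, and the 5 genes with the most PETs per pool. Other named genes were chosen after their values were seen, and some genes that the rule names are not reported here. Alternatives were other gene windows, anchor sets, denominators, spans and thresholds.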

Additional observations from a re-analysis of the deposited data

How the results depend on the processing

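Genes at least 2-fold higher and lower in KO share numbered 1361 and 1623 with all pairs. They numbered 830 and 299 on pairs of anchors overlapping the other pool, 598 and 1043 on pairs with 2 or more PETs, and 251 and 64 among genes with 200 or more PETs. With the anchor midpoint in the gene body they were 932 and 898, and with spans of 20 kb to 1 Mb 912 and 1001. A minimum mean share of 5 per 10000 over the pools, added after seeing the data, gave 259 and 365. The higher genes made up 45.6% of those past 2-fold with all pairs, 73.5% on pairs of overlapping anchors and 79.7% at 200 or more PETs. The log2 median of all genes shifted by 0.53 on overlapping anchors, 0.26 with anchors under 10 kb and -0.30 on pairs with 2 or more PETs. Counts stayed within 1.5 times for gene starts, the other denominators, 1.5-fold, gene types and anchors under 10 kb, the last 2 choices also added after seeing the data.

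Single genes past 2-fold changed side 13 times. The recomputed ratios numbered 644 in all, which include those of named genes not past 2-fold, so no rate follows from the 2 counts. The cause was not tested beyond the anchor widths given above. With anchors under 10 kb, the ratios were 0.295 for Klf9, 0.169 for Pigl, 0.184 for Sp1 and 0.0158 for Zfp57. With the anchor midpoint in the gene body they were 1.01 for H4c12, 0.880 for Klf9, 3.99 for Rps18, 0.802 for Sp1, 1.55 for Tead3 and 0.0158 for Zfp57. At gene starts Mto1 was at 1.02. On overlapping anchors Sox2 was at 1.26 and Trim28 at 1.34, which are sides against 1 only, since the median of all genes there was 1.32.

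RNA calls among genes with 20 or more PETs were 120 higher and 212 lower. DESeq2 gave 190 higher. Without the expression filter, edgeR gave 1 higher and 0 lower, with 443 and 607 at an unadjusted p under 0.05 and 452 and 600 in DESeq2. Leaving out 1 library gave 81 to 324 higher and 116 to 458 lower, with the most without WT replicate 1, and with 116 lower without KO library B and 123 without F. No paired analysis was possible because the KO columns carry letters and no replicate number, and the HiChIP results come from no test. At the depth of the WT pool, 0 PETs allow a share of up to 1.30 per 10000, against 0.132 in KO.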
